A study of Mus musculus with 10 samples.

Results

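The genes described are 10 members of the vascular endothelial growth factor (VEGF) and platelet-derived growth factor (PDGF) systems, the VEGF family ligands *Vegfa*, *Vegfb*, *Vegfc* and *Pgf*, the PDGF ligands *Pdgfa*, *Pdgfb*, *Pdgfc* and *Pdgfd*, the PDGF receptor *Pdgfra* and the co-receptor *Nrp1*. They were chosen by gene symbol, as 10 of the 54532 genes in the table, and all 10 were among the 12602 genes kept for testing, whose mean over the hearts reached 0.5 FPKM. FPKM are fragment counts scaled by gene length and by a size for each library, so comparisons between hearts depend on the authors' scaling. The FPKM of a heart did not add up to a constant, from 489340 in MEKi heart 1 to 587418 in vehicle heart 3. A TPM scale, with the same sum in every heart, was tried as an alternative. RNA-seq was performed on heart tissue from 5 vehicle control and 5 MEKi-treated mice. Every mouse in both groups carried the germline Rit1 M90I/+ genotype, obtained by crossing males with a conditional Rit1 M90I allele to females of the ubiquitous cytomegalovirus-Cre deleter line, and there was no group with wild-type *Rit1*. The MEKi group received trametinib, an allosteric inhibitor of MEK1 and MEK2, at 1 mg/kg once daily for 20 weeks from 4 weeks of age. The vehicle group was dosed with carrier alone, and hearts were collected 2 hours after the last dose. The question for these genes is whether their transcripts differed between hearts with and without long-term MEK inhibition.

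VEGF ligands act on tyrosine kinase receptors of endothelial cells. VEGF-A signals mainly through VEGFR2, encoded by *Kdr*, and drives the growth of blood vessels, whereas VEGF-C acts through VEGFR3, encoded by *Flt4*, and is required for lymphatic vessels. VEGF-B and placental growth factor bind VEGFR1, encoded by *Flt1*, and neuropilin-1 helps present VEGF-A to *Kdr*. PDGF ligands signal to the mesenchymal cells around vessels. PDGF-B from endothelium recruits pericytes that carry PDGFR-beta, and PDGF-A and PDGF-C signal to fibroblasts that carry PDGFR-alpha. Both receptor classes signal in part through RAS and the MEK-ERK cascade.

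From 13647167 to 18474002 fragments per heart were assigned to genes. Cardiomyocyte markers such as *Myh6* were abundant in every heart (7 of 7 above 0, summed level 17103 to 24857 FPKM), as the cardiac tissue label implies. Atrial transcripts stood apart in 3 hearts, where the sum of 6 markers was 898.2 FPKM in vehicle heart 4, 422.8 FPKM in vehicle heart 5 and 740.4 FPKM in MEKi heart 2, against 13.7 to 59.0 FPKM in the other 7. *Xist* was at most 0.0066 FPKM in the vehicle group and 5.16 to 6.85 FPKM in the MEKi group, and 4 of 4 Y-linked transcripts were at 0 in every MEKi-treated heart. The methods state that both sexes were studied, so treatment and sex-linked expression divided these hearts identically and their parts in any value below cannot be told apart. In bulk tissue, fewer cells of a type and less RNA per cell cannot be told apart either.

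*Vegfb*, *Vegfa* and *Pdgfc* are shown by the bases just before their transcription starts, because they are the highest 2 and the lowest of the 10 genes in level. The sequences come from RefSeq (build GRCm38.p6) and are written 5′ to 3′ on the strand of the gene, with capitals for a match to a GC box (GGGCGG) or to a hypoxia element core (GCGTG) on either strand.
Vegfb, chr19:6987652-6987901, minus strand: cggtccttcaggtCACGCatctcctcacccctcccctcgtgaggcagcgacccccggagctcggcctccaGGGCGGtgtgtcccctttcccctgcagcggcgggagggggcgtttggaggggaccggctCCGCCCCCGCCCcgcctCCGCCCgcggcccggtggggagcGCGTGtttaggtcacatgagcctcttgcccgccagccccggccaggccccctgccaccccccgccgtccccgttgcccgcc
Vegfa, chr17:46032378-46032627, minus strand: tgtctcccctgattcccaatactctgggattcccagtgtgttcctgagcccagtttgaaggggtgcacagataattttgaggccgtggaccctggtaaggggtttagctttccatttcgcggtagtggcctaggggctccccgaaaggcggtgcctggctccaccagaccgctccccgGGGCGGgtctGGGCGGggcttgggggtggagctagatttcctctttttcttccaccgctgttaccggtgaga
Pdgfc, chr3:81036166-81036415, plus strand: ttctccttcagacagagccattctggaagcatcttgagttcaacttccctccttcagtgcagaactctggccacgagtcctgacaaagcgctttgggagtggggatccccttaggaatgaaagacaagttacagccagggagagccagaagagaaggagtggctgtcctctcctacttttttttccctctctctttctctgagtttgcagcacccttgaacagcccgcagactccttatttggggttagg

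The *Vegfb* window held 4 GC boxes, 2 of them side by side with no base between, and 2 matches to GCGTG. This *Vegfa* window held 2 GC boxes, and a second annotated *Vegfa* start had 1 GC box together with 1 match each to ACGTG and GCGTG. No match to these letters or to TATAAA was found in the *Pdgfc* window. GC content was 76.4% for *Vegfb*, 59.2% for this *Vegfa* window and 50.8% for *Pdgfc*, with a median of 52.4% over all 32851 windows of the same length. Of the 10 genes, 9 were matched to 12 windows, and *Pdgfb* was not matched. A GC box was present in 8 of the 12 windows and in 32.7% of all windows. GCGTG was present in 5 of 12 and in 28.2% of all, ACGTG in 1 of 12 and in 16.6% of all, and TATAAA in 1 of 12, that of *Pdgfd*, and in 12.4% of all. These matches describe letters only, and no binding was measured.

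The 10 genes spanned a wide range of levels. *Vegfb* (chromosome 19, 6982473 to 6987651, minus strand) had a mean of 231.4 FPKM over the 10 hearts, 7.13 times that of *Vegfa* (chromosome 17, 46016993 to 46032369, minus strand) at 32.5 FPKM. *Pdgfb* followed at 9.91 FPKM, then *Nrp1* at 8.22, *Pdgfa* at 5.63, *Vegfc* at 4.66, *Pdgfd* at 4.12, *Pdgfra* at 3.79 and *Pgf* at 3.21 FPKM, and *Pdgfc* was lowest at 0.613 FPKM. Each gene was above the next in this order in 8 to 10 of the 10 hearts. The steps from *Vegfb* to *Vegfa*, *Vegfa* to *Pdgfb*, *Nrp1* to *Pdgfa* and *Pgf* to *Pdgfc* held in 10 of 10 hearts. The step from *Pdgfb* to *Nrp1* held in 9 of 10, and the order among *Pdgfa*, *Vegfc*, *Pdgfd*, *Pdgfra* and *Pgf* was broken in 2 hearts at each step, so neighbours within this middle group were not separated beyond their spread.

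**Figure D1:**
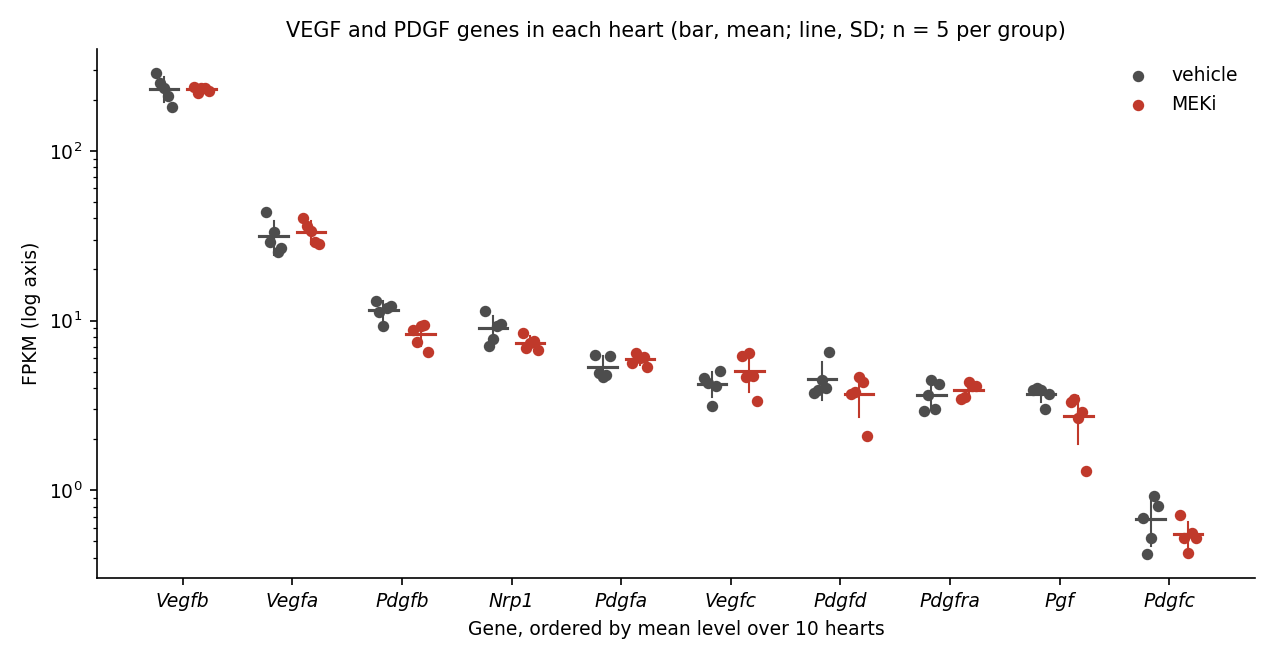
Level of each VEGF and PDGF gene in FPKM on a log axis, with 1 point per heart, grey for vehicle and red for MEKi, a bar at the group mean and a line of 1 SD either side (n = 5 per group). *Vegfb* lies above all other genes in every heart and *Pdgfc* below all others, and the groups overlap for all 10 genes.

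None of the 10 genes differed between MEKi-treated and vehicle hearts after adjustment over all genes tested (limma, two-sided, Benjamini-Hochberg adjusted p from 0.395 to 0.998), where 10 of 12602 genes, 0.0794% of those tested, had an adjusted p under 0.05. The sex-linked transcripts *Ddx3y*, *Eif2s3y*, *Xist* and *Uty* were among those called and had the smallest p. Without X, Y and mitochondrial genes, 0 of 12178 genes were called. At an unadjusted p under 0.05, 2 of the 10 were lower with MEKi, *Pdgfb* and *Pgf*, and 0 were higher, beside 7.62% of all genes in either direction. The groups overlapped for all 10 genes, whereas 1.64% of all genes tested had groups that did not overlap. Across the 10 genes, 4 were higher and 6 lower with MEKi. Their log2 fold changes had a median of −0.11 and ran from −0.49 to 0.23. The median over all genes tested was 0.01. Fold changes are differences of mean log2(FPKM + 0.1), a scale that makes the change of scarce transcripts look smaller. Exact permutation of the 10 hearts, for which 0.00794 is the smallest possible p, also gave no adjusted p under 0.05 for any of them.

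**Figure D2:**
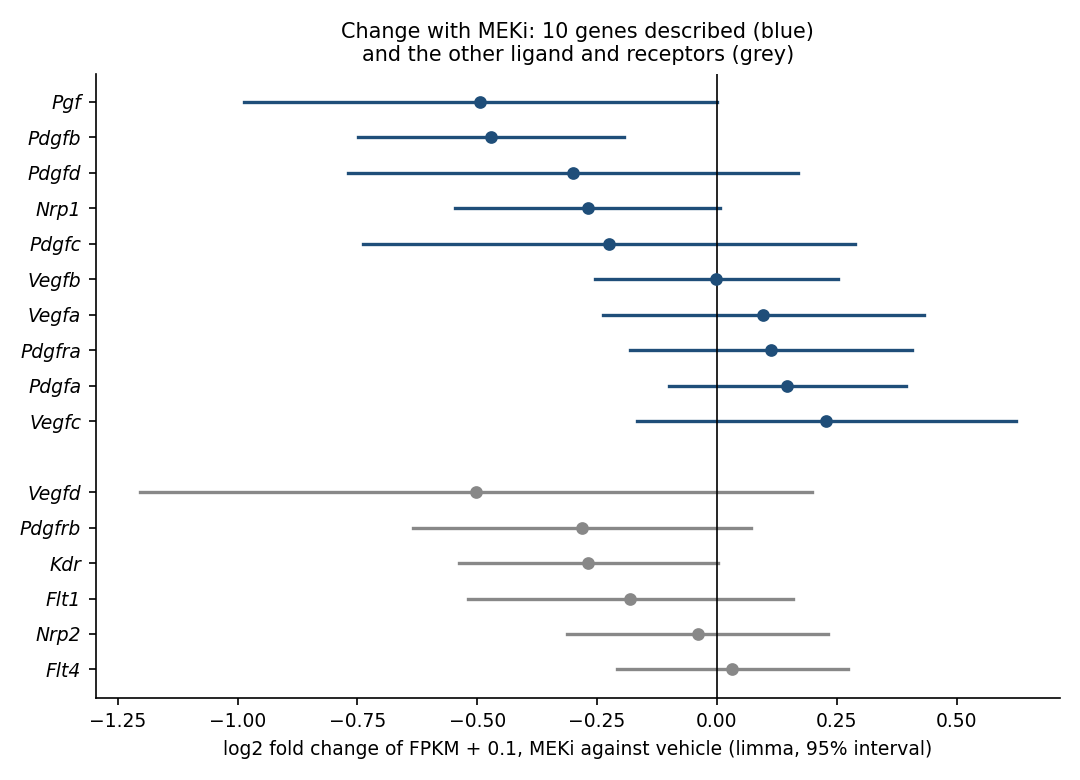
Log2 fold change of FPKM + 0.1 for MEKi against vehicle (points) with 95% intervals from limma (lines), for the 10 genes in blue and for *Vegfd* and 5 further receptors in grey. Only the intervals of *Pdgfb* and *Pgf* lie wholly below 0, that of *Pgf* by less than 0.001, and no adjusted p passed 0.05.

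*Vegfa*, the main driver of blood vessel growth, was at 43.4, 28.8, 33.3, 25.4 and 26.8 FPKM in the vehicle group 1 to 5 and at 40.3, 35.8, 33.5, 29.0 and 28.3 FPKM in MEKi hearts 1 to 5. Vehicle heart 1 was the highest and vehicle heart 4 the lowest, with all MEKi-treated hearts between them. The log2 fold change was 0.10 (SE 0.15, 95% interval −0.24 to 0.43, adjusted p = 0.916). It ranged from 0.026 without vehicle heart 4 or MEKi heart 1 to 0.22 without vehicle heart 1, and its direction turned to −0.10 without the 3 hearts with high atrial transcripts.

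*Vegfb*, a VEGFR1 ligand abundant in heart muscle, was at 286.4, 250.8, 235.8, 209.6 and 181.6 FPKM in the vehicle group and at 236.8, 219.4, 233.1, 233.9 and 226.5 FPKM in the MEKi group. The MEKi-treated hearts lay inside the vehicle range and closer together, with a coefficient of variation of 3.04% against 17.1%, a difference in spread that was not tested. The group means, 232.8 ± 39.9 and 230.0 ± 6.99 FPKM (SD, n = 5 each), gave a log2 fold change of −0.0012 with a 95% interval of −0.25 to 0.25 (adjusted p = 0.998), so a change of more than 1.19-fold in either direction lay outside the interval.

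*Vegfc* (chromosome 8, 54077606 to 54187096, plus strand), the lymphatic growth factor, was at 4.59, 4.31, 3.16, 4.14 and 5.08 FPKM in the vehicle group and at 6.17, 4.66, 6.48, 4.70 and 3.35 FPKM in the MEKi group. The highest 2 values were both from MEKi-treated hearts, and MEKi heart 5 lay below 4 of the 5 vehicle hearts. Its difference was 0.23 on the log2 scale (SE 0.18, 95% interval −0.17 to 0.62, adjusted p = 0.808), and it was 0.13 without vehicle heart 3 or MEKi heart 3, 0.15 without MEKi heart 1 and 0.37 without MEKi heart 5. It rested on 110 to 259 fragments per heart.

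*Pgf* (chromosome 12, 85166635 to 85177790, minus strand), which encodes placental growth factor, was at 3.91, 4.01, 3.88, 2.99 and 3.72 FPKM in the vehicle group. In MEKi-treated hearts it was at 3.30, 3.47, 2.65, 2.91 and 1.29 FPKM. Vehicle heart 4 lay below 2 MEKi-treated hearts, the other vehicle hearts lay above all of them, and MEKi heart 5 was well below the rest with 59 fragments against 113 to 191 elsewhere. *Pgf* had a log2 fold change of −0.49 (SE 0.23, limma p = 0.0499, adjusted p = 0.652; exact permutation p = 0.0317, adjusted p = 0.592). Without MEKi heart 5 it was −0.26 (adjusted p = 0.744).

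As a share of the summed FPKM of the VEGF ligands, *Vegfd* included, *Vegfb* took from 82.6 to 87.2% and *Vegfa* from 9.997 to 14.1% in all 10 hearts. *Vegfc* contributed from 1.14 to 2.34%, *Pgf* from 0.498 to 1.70% and *Vegfd* from 0.0845 to 0.484%. The ratio of *Vegfb* to *Vegfa* was 6.59 to 8.70 with vehicle and 5.87 to 8.07 with MEKi. The shares of this ligand pool overlapped between groups for every ligand.

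*Pdgfb* (chromosome 15, 79995874 to 80014977, minus strand), the endothelial ligand for pericytes, was at 13.1, 11.2, 9.23, 11.9 and 12.1 FPKM in the vehicle group and at 8.82, 7.52, 9.26, 9.37 and 6.53 FPKM in the MEKi group. Of the vehicle hearts, 4 lay above all MEKi-treated hearts, and vehicle heart 3 lay below 2 of them by less than 0.2 FPKM. Means were 11.5 ± 1.45 and 8.30 ± 1.23 FPKM (SD, n = 5 each). *Pdgfb* had the smallest p of the 10 genes, with a log2 fold change of −0.47 (SE 0.13, 95% interval −0.75 to −0.19, limma p = 0.00313, rank 100 of 12602), and it did not pass adjustment (adjusted p = 0.395; exact permutation p = 0.0238, adjusted p = 0.559). The fold change was −0.39 without the 3 hearts with high atrial transcripts (adjusted p = 0.770).

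Markers of endothelial cells, which make PDGF-B, and of pericytes, which receive it, gave no call. Of 8 endothelial markers, 7 were lower with MEKi (median log2 fold change −0.17, 0 with an unadjusted p under 0.05), and their summed level was 176.4 to 332.2 FPKM in the vehicle group and 173.0 to 222.7 FPKM in the MEKi group. All 6 pericyte markers were lower (median −0.27, 0 with an unadjusted p under 0.05), with sums of 139.4 to 181.8 and 116.7 to 165.0 FPKM. Set against the mean log2 level of the endothelial markers in the same heart, the log2 level of *Pdgfb* was −1.27 to −0.90 in vehicle hearts and −1.55 to −1.22 in MEKi-treated hearts, a difference of −0.32 against −0.47 before this subtraction. For *Nrp1* the difference was −0.12 against −0.27 before it, and for *Kdr* −0.12 against −0.27. Set against the pericyte markers, that of *Pdgfrb* was −0.0073 against −0.28. These differences were not tested.

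*Pdgfa* (chromosome 5, 138976014 to 138997370, minus strand), a ligand for PDGFR-alpha, was at 6.31, 4.89, 4.62, 4.77 and 6.21 FPKM in the vehicle group and at 5.61, 6.43, 6.05, 6.10 and 5.35 FPKM in the MEKi group. The lowest 3 hearts were all vehicle hearts, while vehicle hearts 1 and 5 lay above 4 of the 5 MEKi-treated hearts. The log2 fold change was 0.15 (SE 0.11, 95% interval −0.10 to 0.39, adjusted p = 0.798), and it was 0.098 without vehicle heart 3. The gene overlaps the antisense gene 6330403L08Rik (138995056 to 139000577), which was at 2.66 ± 0.281 FPKM in the vehicle group and 2.47 ± 0.206 FPKM in the MEKi group (SD, n = 5 each). The strand setting of the counting was not given in the sources used here, so reads from the stretch where these genes overlap cannot be told apart.

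*Pdgfd* (chromosome 9, 6168584 to 6378850, plus strand), a PDGFR-beta ligand, was at 3.77, 3.89, 4.46, 4.03 and 6.51 FPKM in the vehicle group and at 3.70, 3.79, 4.66, 4.34 and 2.08 FPKM in the MEKi group. Vehicle heart 5 was the highest and MEKi heart 5 the lowest, and the other 8 hearts lay between 3.70 and 4.66 FPKM. The log2 fold change of −0.30 (SE 0.21, adjusted p = 0.777) was −0.11 without MEKi heart 5 and −0.16 without vehicle heart 5.

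*Pdgfc* (chromosome 3, 81036416 to 81214040, plus strand), another PDGFR-alpha ligand, was at 0.689, 0.423, 0.525, 0.931 and 0.810 FPKM in the vehicle group and at 0.711, 0.527, 0.428, 0.560 and 0.525 FPKM in the MEKi group. With 31 to 66 fragments per heart, its 95% interval ran from −0.74 to 0.29 around a log2 fold change of −0.23 (adjusted p = 0.859), so a MEKi level below 0.599 times or above 1.22 times that of vehicle lay outside the interval and smaller changes were not resolved. It ranged from −0.36 without vehicle heart 2 to −0.11 without vehicle heart 4, and the direction turned without the 3 hearts with high atrial transcripts (0.027).

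Within the PDGF ligand pool, the shares of 2 of the 4 ligands did not overlap between groups. *Pdgfb* took 54.9, 54.9, 49.0, 55.0 and 47.2% of the summed FPKM of the PDGF ligands in vehicle hearts and 46.8, 41.2, 45.4, 46.0 and 45.1% in MEKi-treated hearts. *Pdgfa* took 26.4, 24.0, 24.5, 22.0 and 24.2% in vehicle hearts and 29.8, 35.2, 29.6, 29.9 and 36.9% in MEKi-treated hearts. The lowest *Pdgfb* share of a vehicle heart was above, and the highest *Pdgfa* share below, that of every MEKi-treated heart. The ratio of *Pdgfb* to *Pdgfa* was accordingly 1.95 to 2.499 in vehicle hearts and 1.17 to 1.57 in MEKi-treated hearts. The ratio was singled out after its values were seen, and it is given with no test. Of the 45 ratios between pairs of the 10 genes, 3 (6.67%) did not overlap between groups, the others being *Pdgfb* to *Vegfc* and *Pdgfa* to *Pgf*. Among ratios of *Pdgfb* to each of 12360 other genes above 0 in every heart, 17.7% did not overlap, and for *Pdgfa* the corresponding share was 2.33%. *Pdgfd* took from 14.4 to 25.4% and *Pdgfc* from 2.07 to 4.30% of the pool, both with overlapping groups.

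**Figure D3:**
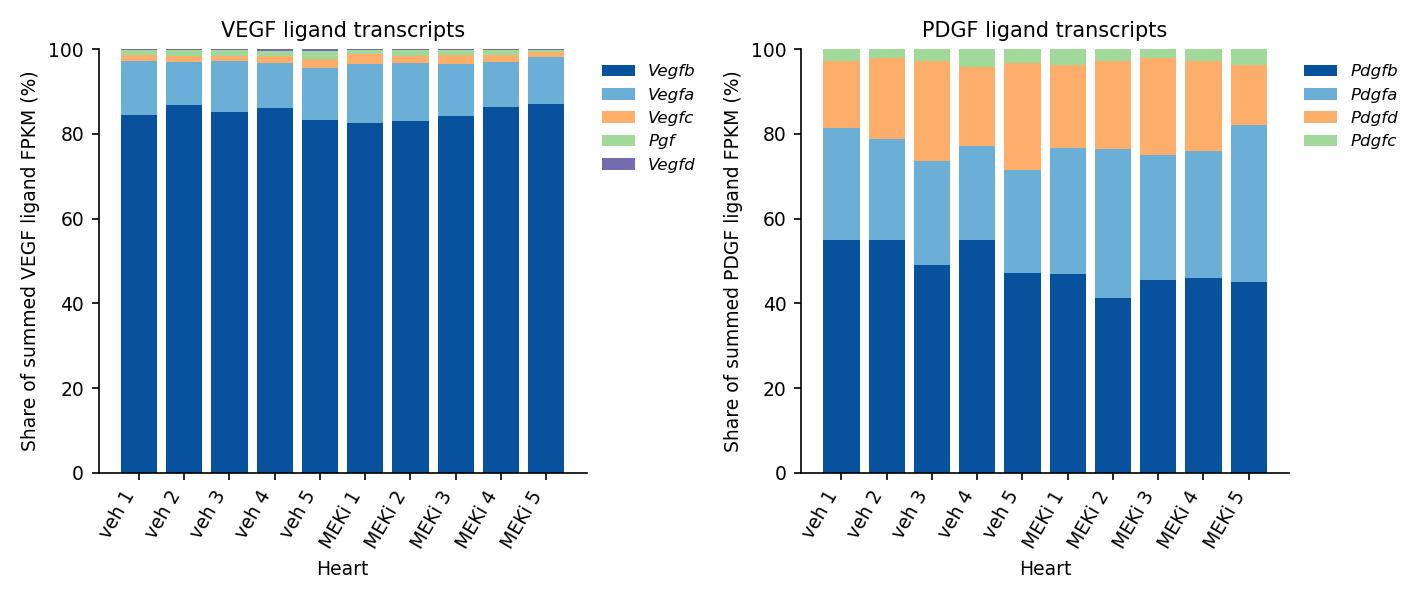
Share of each ligand in the summed FPKM of the VEGF ligands (left) and of the PDGF ligands (right), in percent, as 1 stacked bar per heart. *Vegfb* fills more than 82% of every VEGF bar, and the *Pdgfa* segment is between 22.0 and 26.4% in vehicle hearts and between 29.6 and 36.9% in MEKi-treated hearts.

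*Pdgfra* (chromosome 5, 75152292 to 75198215, plus strand), a receptor that marks cardiac fibroblasts, was at 2.92, 3.66, 4.48, 3.03 and 4.20 FPKM in the vehicle group and at 3.45, 3.57, 4.35, 4.12 and 4.13 FPKM in the MEKi group. The highest and the lowest value both came from vehicle hearts. The log2 fold change was 0.11 (SE 0.13, 95% interval −0.18 to 0.41, adjusted p = 0.886). It was 0.039 without vehicle heart 1, 0.051 without vehicle heart 4, 0.074 without MEKi heart 3 and 0.19 without vehicle heart 3. Of 9 fibroblast markers, 3 were higher and 6 lower with MEKi (median −0.05, adjusted p from 0.609 to 0.971), with sums of 790.1 to 1112 FPKM in the vehicle group and 739.3 to 1014 FPKM in the MEKi group.

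*Pdgfrb*, the pericyte receptor, was above *Pdgfra* in 10 of 10 hearts. It was at 10.6, 11.1, 6.34, 6.56 and 7.10 FPKM in the vehicle group and at 6.22, 6.41, 7.08, 6.85 and 6.73 FPKM in the MEKi group, so vehicle hearts 1 and 2 stood above the other 8. Its log2 fold change was −0.28 (SE 0.16, adjusted p = 0.715), and it was −0.18 without vehicle heart 1, −0.17 without vehicle heart 2 and −0.43 without the 3 hearts with high atrial transcripts. The log2 ratio of *Pdgfra* to *Pdgfrb* ran from −1.86 to −0.50 in vehicle hearts, which contained the whole MEKi range of −0.85 to −0.70.

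*Nrp1* (chromosome 8, 128358604 to 128503363, plus strand), a co-receptor for VEGF-A and for class 3 semaphorins, was at 11.3, 7.12, 7.82, 9.34 and 9.55 FPKM in the vehicle group and at 8.42, 6.88, 7.34, 7.63 and 6.75 FPKM in the MEKi group. Vehicle hearts 1, 4 and 5 lay above all MEKi-treated hearts, and vehicle heart 2 lay below 3 of them. *Nrp1* had a log2 fold change of −0.27 (SE 0.13, 95% interval −0.55 to 0.01, adjusted p = 0.656 by limma; exact permutation p = 0.0794). It was −0.18 without vehicle heart 1 and −0.19 without the 3 hearts with high atrial transcripts (adjusted p = 0.943).

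The remaining ligand and receptors of both systems gave no call, with 0 of 7 past the threshold, 2 higher and 5 lower (median −0.18). *Kdr*, the principal VEGF-A receptor, was at 15.5 ± 2.47 FPKM in the vehicle group and 12.8 ± 1.37 FPKM in the MEKi group (SD, n = 5 each). Its log2 fold change was −0.27 (adjusted p = 0.652), and −0.072 without the 3 hearts with high atrial transcripts. *Flt1* was at 9.66 ± 1.83 and 8.52 ± 1.71 FPKM (log2 fold change −0.18, adjusted p = 0.820), and *Flt4* at 2.42 ± 0.342 and 2.47 ± 0.124 FPKM (0.03, adjusted p = 0.963). *Kdr* exceeded *Flt1*, and *Flt1* exceeded *Flt4*, in 10 of 10 hearts, and *Nrp1* exceeded its homolog *Nrp2* by 1.88 to 3.89 times. *Nrp2*, the co-receptor of lymphatic endothelium, was at 3.32 ± 0.412 and 3.23 ± 0.462 FPKM (log2 fold change −0.04, adjusted p = 0.961), a difference whose direction turned on the TPM scale. *Vegfd* was at or below 1.06 FPKM in every heart.

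**Figure D4:**
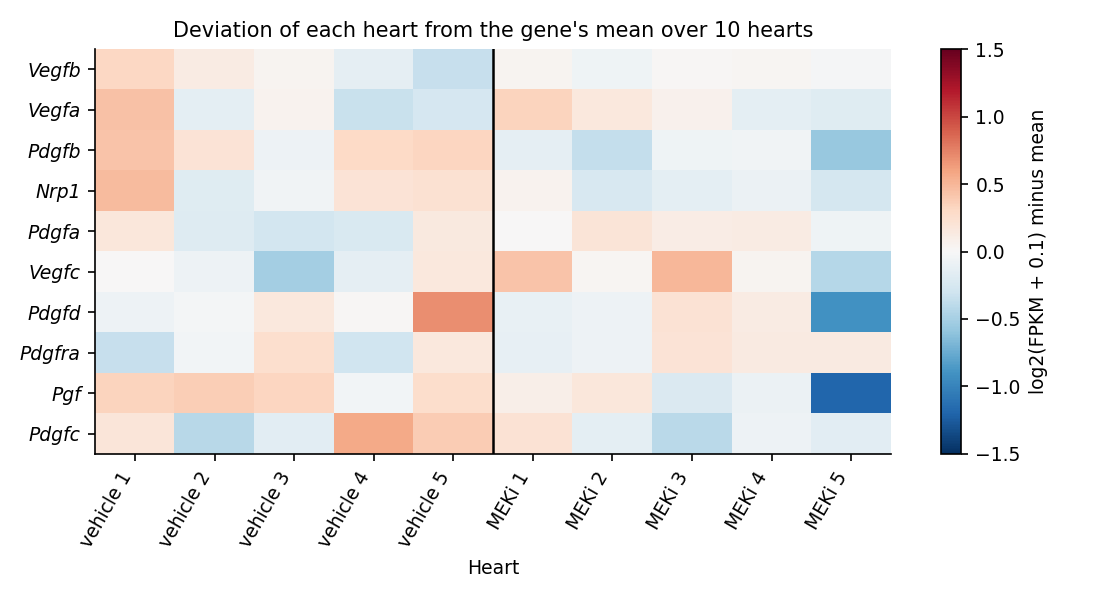
Deviation of log2(FPKM + 0.1) from each gene's mean over the 10 hearts, with genes in rows, hearts in columns, red for above and blue for below the mean, and a black line between vehicle and MEKi hearts. MEKi heart 5 is the lowest heart for 4 genes (*Pgf*, *Pdgfb*, *Pdgfd* and *Nrp1*) and vehicle heart 1 the highest for 4 (*Vegfa*, *Vegfb*, *Pdgfb* and *Nrp1*).

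Several of the extreme values came from the same hearts. MEKi heart 5 was the lowest of all 10 hearts for *Pgf*, *Pdgfb*, *Pdgfd* and *Nrp1*, and for none of the genes was it the highest. Vehicle heart 1 was the highest for *Vegfa*, *Vegfb*, *Pdgfb* and *Nrp1* and the lowest for *Pdgfra*. The endothelial sum of MEKi heart 5 was also the lowest of the 10, at 173.0 FPKM, whereas that of vehicle heart 1 was 243.9 FPKM. Vehicle heart 3, the lowest for *Vegfc* and *Pdgfa*, was nearly as low at 176.4 FPKM. The highest sum, 332.2 FPKM, was in vehicle heart 5, which was the highest for *Pdgfd* and the lowest for *Vegfb*.

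Levels of 4 genes were compared with the mean log2 level of the markers of the cells that are known to express them, over all 10 hearts (permutation p, two-sided, adjusted over 4 correlations). *Pdgfb* varied with the endothelial markers with r = 0.74 (p = 0.0147, adjusted p = 0.0588) and rho = 0.78 (p = 0.0106, adjusted p = 0.0144), and *Nrp1* with r = 0.64 (p = 0.0479, adjusted p = 0.0639) and rho = 0.78 (p = 0.0108, adjusted p = 0.0144). *Vegfa*, which cardiomyocytes supply to nearby capillaries, gave r = 0.69 (p = 0.0323, adjusted p = 0.0639) and rho = 0.78 (p = 0.0108, adjusted p = 0.0144) with the cardiomyocyte markers. For *Pdgfra* and the fibroblast markers r was 0.11 (adjusted p = 0.765) and rho 0.21 (adjusted p = 0.563). Without the 2 hearts farthest from the median marker level, MEKi heart 5 and vehicle heart 5, r was 0.50 for *Pdgfb*, 0.49 for *Nrp1* and 0.59 for *Vegfa* (permutation, adjusted p = 0.280 for each), and rho was 0.60, 0.60 and 0.67 (permutation, adjusted p = 0.181 for each). The relations thus kept their sign over 8 hearts. By rho they were no longer called, and by r they had not been called over all 10 hearts either. For *Pdgfra*, r without vehicle heart 5 and MEKi heart 2 was −0.016. With each group centred on its own mean, r was 0.81 for *Pdgfb* (adjusted p = 0.0317), 0.58 for *Nrp1* (adjusted p = 0.101), 0.67 for *Vegfa* (adjusted p = 0.0627) and 0.16 for *Pdgfra* (adjusted p = 0.659). The centred rho was 0.62 for *Pdgfb* (adjusted p = 0.0792), 0.82 for *Nrp1* (adjusted p = 0.0238), 0.67 for *Vegfa* (adjusted p = 0.0767) and 0.18 for *Pdgfra* (adjusted p = 0.632), so r and rho gave different calls for *Pdgfb* and *Nrp1*.

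**Figure D5:**
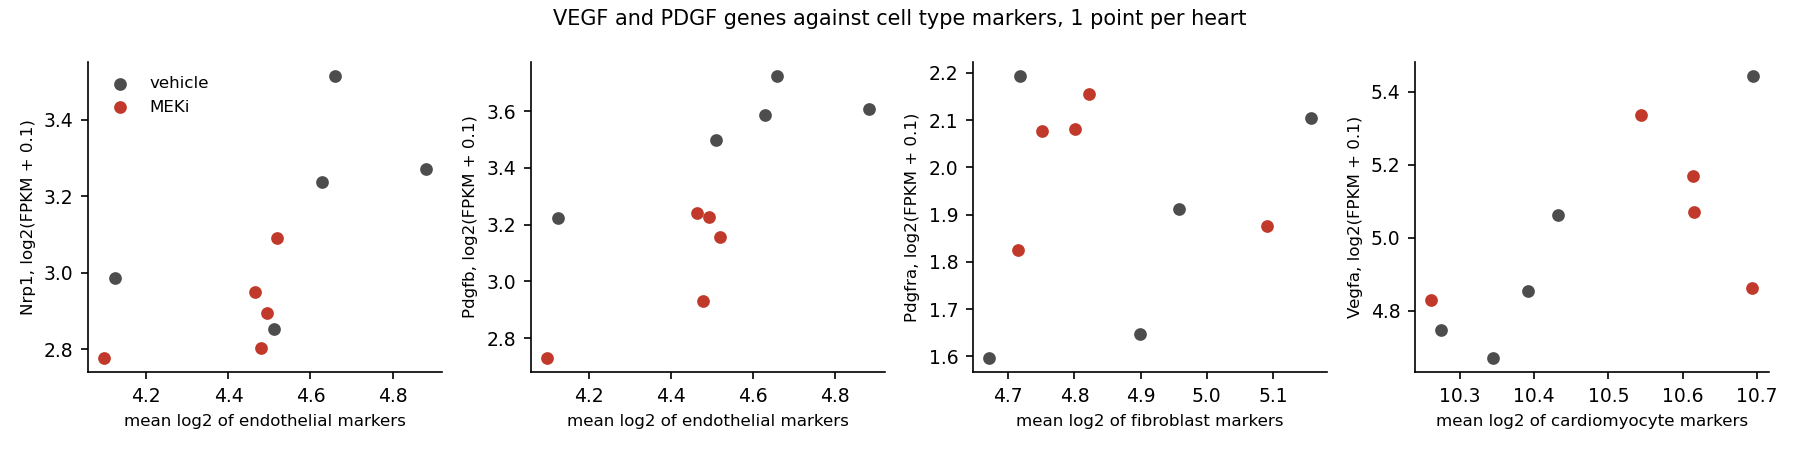
Log2(FPKM + 0.1) of *Nrp1* and *Pdgfb* against the mean log2 level of endothelial markers, of *Pdgfra* against fibroblast markers and of *Vegfa* against cardiomyocyte markers, with 1 point per heart, grey for vehicle and red for MEKi. The first 2 panels and the last rise from left to right (r = 0.64, 0.74 and 0.69), and the *Pdgfra* panel shows little slope (r = 0.11).

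Genes that act before and after the receptors showed no call. Of the 7 enzymes that process VEGF and PDGF ligands, 5 were tested, 2 higher and 3 lower (median −0.08). *Plau*, the urokinase plasminogen activator, which can cleave PDGF-D, was at 3.32 ± 0.571 FPKM in the vehicle group and 2.22 ± 0.737 FPKM in the MEKi group (SD, n = 5 each). On the log2 scale it differed by −0.60 (SE 0.19 and adjusted p = 0.478 by limma). Of 13 receptor-proximal signalling genes, 6 were higher and 7 lower (median −0.04). The adaptors *Gab1* (8.33 ± 0.993 and 10.03 ± 0.416 FPKM, log2 fold change 0.27, adjusted p = 0.517) and *Grb2* (23.1 ± 2.37 and 26.4 ± 1.01 FPKM, 0.20, adjusted p = 0.649) had an unadjusted p under 0.05. Of 10 neuropilin ligands and plexins, 6 were tested, 1 higher and 5 lower (median −0.21), with *Plxna2*, a semaphorin receptor, at 1.95 ± 0.387 and 1.39 ± 0.370 FPKM (−0.48, adjusted p = 0.569).

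Hypoxia induces *Vegfa* through HIF proteins, and 13 of 14 hypoxia response genes were tested, 9 higher and 4 lower with MEKi (median 0.08, 0 called). *Hif1a* itself was at 5.95, 6.55, 8.42, 6.38 and 6.64 FPKM in the vehicle group and at 10.1, 8.70, 8.61, 7.78 and 9.40 FPKM in the MEKi group (difference on the log2 scale 0.39, SE 0.11, adjusted p = 0.410 by limma), with only vehicle heart 3 inside the MEKi range. *Slc2a1*, the glucose transporter GLUT1 and a HIF target, was at 3.30 to 4.66 FPKM in the vehicle group and at 5.05 to 5.55 FPKM in the MEKi group, without overlap (log2 fold change 0.39, SE 0.11, adjusted p = 0.401). *Epas1*, which encodes HIF-2alpha, was at 58.0 ± 5.99 and 50.3 ± 7.37 FPKM (−0.21, adjusted p = 0.712), and *Egln1*, an oxygen sensor of the pathway, was at 97.6 ± 12.6 and 98.5 ± 6.92 FPKM (0.02, adjusted p = 0.975). The largest change of the list was in the other direction, for *Ankrd37* at 2.05 ± 0.656 and 1.32 ± 0.422 FPKM (−0.61, adjusted p = 0.652 by limma). *Egln3* was also lower (−0.24, adjusted p = 0.818 by limma).

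Lymphatic endothelial markers, read beside *Vegfc* and *Flt4*, were 2 higher and 2 lower of 4 tested (median 0.13, 0 called). The 2 higher, *Mmrn1* and *Prox1*, had an unadjusted p under 0.05 by limma and the 2 lower did not, beside 7.62% of all genes. *Mmrn1* was at 1.97 ± 0.695 FPKM in the vehicle group and 2.94 ± 0.674 FPKM in the MEKi group (0.61 on the log2 scale, adjusted p = 0.626 by limma). *Prox1*, the lymphatic identity factor that is also expressed in heart muscle, was at 3.75 ± 0.540 and 5.29 ± 0.870 FPKM (SD, n = 5 each), with a difference of 0.48 on the log2 scale (adjusted p = 0.413 by limma). *Lyve1* was at 16.2 ± 6.56 and 12.7 ± 1.46 FPKM (−0.26, adjusted p = 0.833). The 4 angiopoietin and TIE genes, the neighbouring system of vessel maturation, were 2 higher and 2 lower with log2 fold changes from −0.12 to 0.03.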

How the data were processed

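Messenger RNA from 10 hearts was selected with poly-T beads and sequenced. The authors deposited one table of FPKM with gene lengths and coordinates. The submitters' processing notes name fastp, STAR 2.5, HTSeq 0.6.1 and build mm10, and 98.3% of 54495 genes found by identifier in GENCODE M21 had its GRCm38 coordinates. The strand setting was not given in the sources used here. All 10 columns were mapped to a heart by their labels. The product of FPKM and gene length came in whole steps within each heart for 100% of values (relative tolerance 0.01%), which gave the fragments behind each value. Counting error is only part of the spread.

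The groups' log2(FPKM + 0.1) values were compared by limma 3.58.1 under R 4.3.3 (eBayes with a mean-variance trend, two-sided) for genes whose mean reached 0.5 FPKM, with Benjamini-Hochberg adjustment over all 12602 genes and a threshold of 0.05. Exact permutation used all 252 assignments of hearts, and correlations used 100000 permutations. Summaries were made in Python 3.11.15 with scipy 1.17.1. The fit was tested on simulated data. Alternatives were pseudocounts of 0.01 and 1, filters, TPM and quantile scaling, other eBayes settings, array weights, voom on the recovered fragments, subsets of genes, the replicate block and leaving out each heart. Leaving out the 3 hearts with high atrial transcripts was added after seeing the data. The labels do not say that replicates came from separate litters or days, and their p-values measure the spread between these hearts. The genes and lists were chosen with earlier results of these data known. All 10 genes are named, genes of the lists are named as examples, and for *Vegfa*, *Pdgfra* and *Nrp1* the 3 genes with the highest r over hearts, centred on group means, are named.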

Additional observations from a re-analysis of the deposited data

Results flagged for a closer look

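In 2 of the 64 groups of 5 hearts examined, 1 heart lay far from the others by Dixon's criterion, where chance gives about 3.2. *Pdgfd* was at 6.51 FPKM in vehicle heart 5, with the other vehicle hearts between 3.77 and 4.46 FPKM. *Pdgfrl*, a PDGF receptor-like gene, was at 2.57 FPKM in MEKi heart 2, with the other MEKi-treated hearts between 0.806 and 1.31 FPKM. Vehicle heart 5 and MEKi heart 2 are among the 3 hearts with high atrial transcripts, and the part of those transcripts in these values was not tested.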

How the results depend on the processing

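Under 25 alternatives, 0 of the VEGF and PDGF genes tested passed the threshold (10 genes tested in 24 of them, and 5 with a mean of at least 5 FPKM). Their log2 fold changes kept direction in 237 of 245 comparisons and those of 13 further genes of the pathway in 310 of 317. Many of these directions could not have turned. The filters, gene subsets, other eBayes settings, replicate block and exact permutation leave the fold change itself as it was in the main fit. The ligand shares and the receptor ratio moved by less than the spread between hearts in 110 of 110. Leaving out 1 heart of 5 cannot move a group mean by more than the SD of that group, so such comparisons could not fail. *Vegfb* turned to 0.077 on the TPM scale and ranged from −0.087 to 0.078 when each heart was left out. Without the 3 hearts with high atrial transcripts, *Vegfa* was −0.10, *Pdgfc* 0.027, *Flt1* 0.043, *Nrp2* 0.15 and *Kdr* −0.072. *Nrp2* was 0.036 on the TPM scale and −0.097 to 0.033 when each heart was left out, and *Flt4* −0.0081 to 0.11. The TPM scale rescales all genes of a heart by the same factor. On it *Vegfa* was 0.18, *Vegfc* 0.30 and *Pgf* −0.42, against 0.10, 0.23 and −0.49 in the main fit. The cause of the turns when hearts were left out was not tested. *Pdgfb* ranged from −0.55 to −0.39 with adjusted p from 0.240 to 0.770. Over all genes the number called, 10, was 2 with a mean of at least 5 FPKM, 18 with array weights, 9 by voom, 5 without the atrial-high hearts, 5 to 13 when each heart was left out (5 without vehicle heart 2, 6 without vehicle heart 5), and 0 both without X, Y and mitochondrial genes (924 with an unadjusted p under 0.05 by limma) and by exact permutation (935). It was 4 with the replicate block, but same-numbered hearts did not deviate together (correlations −0.15 to −0.02, 0 of 10 hearts closest to its own number), so the numbers do not pair them. The *Pdgfra* correlation was −0.016 without the 2 farthest hearts. By r, adjusted p passed 0.05 for *Pdgfb* when centred (0.81) and on the TPM scale (0.70), and for *Vegfa* on the TPM scale (0.82). By rho, all 3 of *Pdgfb*, *Nrp1* and *Vegfa* passed on the TPM scale (0.76, 0.89 and 0.84), and when centred *Nrp1* did (0.82) and *Pdgfb* (0.62) and *Vegfa* (0.67) did not. Counts were low for *Pdgfc* (31 to 66 fragments) and *Vegfd* (10 to 37).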

Other observations

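Other cell types in the tissue showed no call. All 6 macrophage markers were lower with MEKi (median log2 fold change −0.36, adjusted p from 0.517 to 0.951), with the complement gene *C1qb* averaging 98.0 ± 27.1 FPKM in the vehicle group against 68.3 ± 9.78 FPKM in the MEKi group (SD, n = 5 each; −0.49 on the log2 scale, adjusted p = 0.517 by limma). Of 3 smooth muscle markers tested, 1 was higher and 2 lower (median −0.08). All 6 red cell and platelet markers were lower (median −0.98, adjusted p from 0.569 to 0.839), and their sum was 21106 and 23965 FPKM in vehicle hearts 4 and 5 against 2727 to 6949 FPKM in the other 8. This sum is mostly haemoglobin, with *Hbb-bs* at 13898 and 14004 FPKM in vehicle hearts 4 and 5. The platelet genes *Ppbp* and *Pf4* were at 4.84 and 32.4 FPKM in vehicle heart 4, and at 34.3 and 91.4 FPKM in vehicle heart 5. Of 5 adipocyte markers, 3 were tested and were higher on the log2 scale (median 0.91, adjusted p from 0.895 to 0.986). Sums of the 5 were 98.1 FPKM in vehicle heart 4, 96.7 FPKM in MEKi heart 2 and at most 30.8 FPKM elsewhere. Mean FPKM of the 3 went the other way, at 2.31 with vehicle and 2.21 with MEKi for *Adipoq*, 24.8 and 22.0 for *Cfd*, and 2.25 and 2.20 for *Cidec*. In vehicle hearts 3 and 5 *Adipoq* was at 0 and *Cfd* at 0.229 and 0.373 FPKM, values that weigh heavily on the log2 scale.

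With each group centred on its mean, the genes most like *Vegfa* across the 10 hearts, among 12601 others, were *Fbxl22* (r = 0.97), *Def6* (0.93) and *Sec31b* (0.92). Those most like *Pdgfra* were *Gdi2* (0.94), *Stam2* (0.93) and *Wwp1* (0.92), and those most like *Nrp1* were the non-coding transcript *Gm1976* (0.96), *Zfp384* (0.89) and *Hexdc* (0.89). These are the highest of many correlations over 10 hearts and are given as descriptions.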
